A study of Mus musculus with 46 samples.

Results

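The genes that write, erase and read histone acetylation were followed in microglia, the resident macrophages of the brain. The set holds 33 genes listed by name: 11 zinc-dependent histone deacetylases, 7 sirtuins, 8 acetyltransferases of the GNAT, Hat1 and MYST kinds, 3 coactivators (Ep300, Crebbp, Ncoa3), 2 bromodomain readers (Brd2, Brd3) and 2 corepressor scaffolds (Ncor1, Sin3a). The rule is a list of gene names and uses no measured value. All 33 were found by symbol among the 54134 genes of the count table, and 32 of them passed the filter on low counts, which left 12121 genes for testing.

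The study measured microglial RNA by RNA-seq in 46 libraries from wild type mice (WT, 22 libraries) and 5xFAD mice (labelled AD, 24 libraries). The 5xFAD strain is a model of amyloid disease that carries mutant human transgenes driven by the neuronal Thy1 promoter. Mice of both genotypes were fed 1 of 3 diets, which were a zero fiber diet, a control diet and a diet with HAMSAB, a high-amylose maize starch that resists digestion and is modified with acetate and butyrate. Each diet and genotype had 8 libraries, 4 female and 4 male, except zero fiber WT with 6, 4 female and 2 male. Age, time on the diet and the way the cells were isolated are absent from the labels. Nothing there states whether 2 libraries could share a mouse, and p-values therefore reflect library-to-library spread, which may be technical. Libraries are named by diet, genotype and a replicate number that follows deposit order.

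Acetyl groups on histone lysines loosen the packing of DNA and form docking sites for bromodomain proteins. Acetyltransferases add the groups from acetyl-CoA, zinc-dependent deacetylases remove them, and sirtuins remove them at the cost of NAD+. Butyrate, a short-chain fatty acid that gut bacteria make from fiber and that HAMSAB delivers, inhibits zinc-dependent deacetylases of class I and IIa. In macrophages, deacetylase complexes built on the scaffolds Ncor1 and Sin3a hold inflammatory genes down. The coactivators p300 and CBP act on the enhancers of the same kind of genes. The present values are RNA levels, and no histone acetylation was measured here.

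Depth spanned 52114 to 6950429 counts (median 2344837.5). The smallest library, zero_fiber_AD replicate 3, is so shallow that 1 read equals 15.5 CPM (counts scaled to a common library size). A second library, zero_fiber_AD replicate 1, is labelled female and carries the sex-gene pattern of a male. Results were therefore also computed without both of these libraries. The 9 microglial markers summed to between 30223 and 33471 CPM in the group means, so the labelled cell type was plain in every group. The numbers in the library titles form a series below 2900 (23 libraries) and a series from 2900 (22 libraries), with 1 library numbered 000 in neither. The labels do not call these batches, and they are uneven over the groups: control WT has 1 library in the lower series and 7 in the upper, while HAMSAB WT has 5 and 3 and HAMSAB AD has 5 and 2.

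Levels of different genes were compared as CPM per kilobase of exon, averaged over the 46 libraries. The reader Brd2 and the coactivator Crebbp stood highest. Brd2, a bromodomain protein that binds acetylated histone H4, had 33.9 CPM per kb, above 87.7% of tested genes. Crebbp (CBP), an acetyltransferase and coactivator, followed with 29.6 CPM per kb. Brd3, the other bromodomain reader of the set, had 20.5 CPM per kb. Ncoa3, a nuclear receptor coactivator that recruits p300 and CBP, had 17.5 CPM per kb, and Ep300 (p300) itself 12.7 CPM per kb. Ep300, Crebbp and Ncoa3 together took 29.4% of the summed CPM of the 33 genes, a share that also reflects their long transcripts.

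Among the erasers, the sirtuins Sirt7 and Sirt2 stood above every zinc-dependent enzyme, and the other sirtuins stood below Hdac1. Sirt7, a nucleolar and chromatin deacetylase of H3K18, had 27.4 CPM per kb. Sirt2, largely a cytoplasmic tubulin deacetylase, had 25.9 CPM per kb and would rank 1st if the longest transcript were used in place of all exons. Hdac1, the class I enzyme of the Sin3, NuRD and CoREST complexes, had 17.3 CPM per kb. Its partner Hdac2 had 6.90 CPM per kb, Hdac3, the catalytic subunit of the NCoR complex, had 7.97 and Hdac8 had 2.45. Of class IIa, enzymes that shuttle between nucleus and cytoplasm, Hdac5 stood at 7.16 CPM per kb, Hdac4 at 2.52, Hdac9 at 0.926 and Hdac7 at 0.176. Hdac7 was the member that did not pass the filter, with a median of 2.5 reads per library and 0 reads in 7 libraries. Hdac6, Hdac10 and Hdac11, of class IIb and IV, lay between 2.28 and 5.02 CPM per kb. The other sirtuins were Sirt6 at 13.2, Sirt4 at 4.05, Sirt1 at 3.23, Sirt3 at 1.82 and Sirt5 at 0.958 CPM per kb.

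The writers covered a wide range. Kat6a (MOZ), a MYST acetyltransferase of H3K23 and H3K9, had 16.3 CPM per kb. Kat2a (GCN5), the catalytic subunit of SAGA, had 12.8 CPM per kb. Kat7, Hat1, Kat2b and Kat8 lay between 6.34 and 8.73 CPM per kb. Kat6b had 1.82 CPM per kb and Kat5 (Tip60) 0.605, with a median of 3 reads per library for Kat5. Of the scaffolds, Ncor1 had 19.3 CPM per kb and Sin3a 12.4. Some exon bases of members are shared with a gene on the other strand, 22.4% of those of Hdac4, 17.9% of Hdac11, 12.7% of Sirt3, 12.1% of Kat5 and 9.78% of Brd2, and no source used here states the strand setting, so reads of such bases cannot be assigned to 1 gene.

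**Figure D1:**
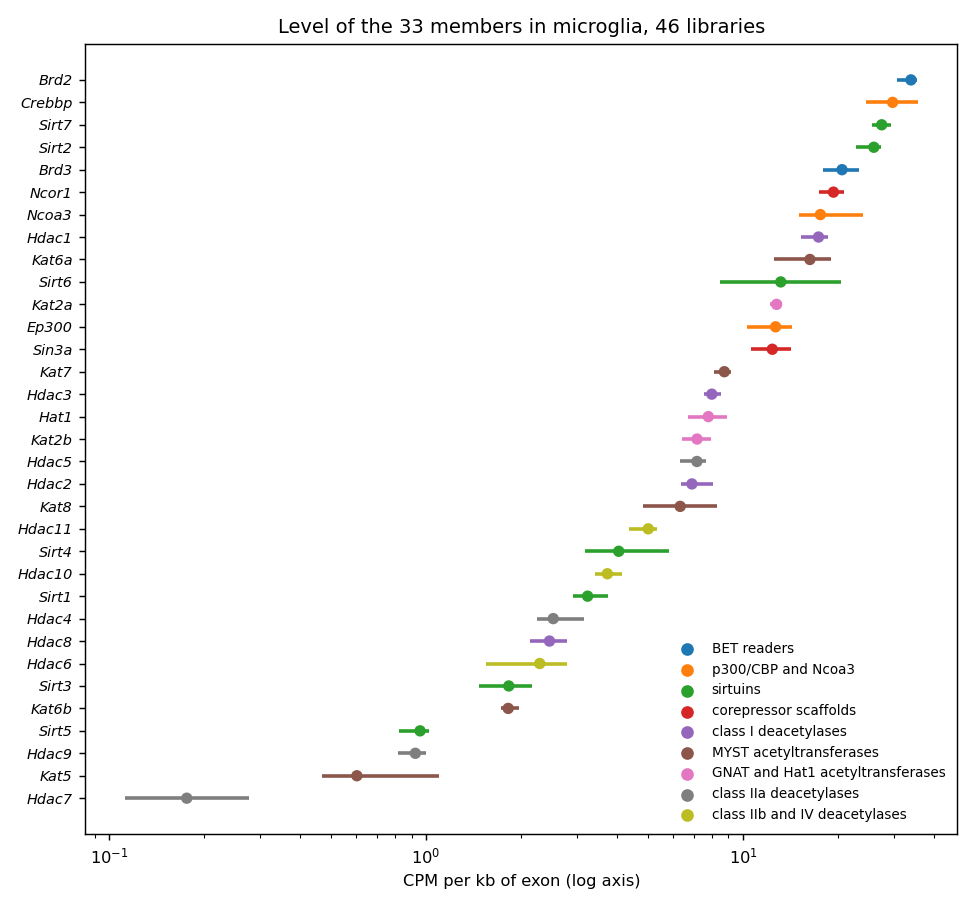
Level of each of the 33 members in CPM per kb of exon (horizontal log axis). Points are the mean of the 6 group means, lines run from the lowest to the highest of these, and colours mark the classes. Brd2 lies highest at 33.9 and Hdac7 lowest at 0.176, and the line of Sirt6 is long (8.45 to 20.4).

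The spread between libraries of 1 diet, genotype and sex differed among members. It was smallest for Sirt2 once the library of lowest depth was left out, at an SD of 0.114 on the log2(CPM + 1) scale, and was 0.144 for Brd2. Sirt6, a deacetylase of H3K9 and H3K56, had an SD of 0.644 on that scale, with a median of 78.5 reads per library. Kat2a, at a similar depth of 99.5 reads, had an SD of 0.184. Differences in Sirt6 were therefore measured far less sharply than those of Kat2a.

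Every comparison came from 1 edgeR quasi-likelihood fit over all 46 libraries, with sexes averaged at equal weight. A gene was called when its Benjamini-Hochberg adjusted p over the 12121 tested genes was under 0.05. Each log2 fold change is given with its standard error (SE). In bulk RNA, fewer cells of a type and less RNA per cell cannot be told apart.

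The first question was whether any member differed among the 6 diet and genotype groups. Crebbp and Ncoa3 were called (adjusted p = 0.00674 and 0.00676, edgeR quasi-likelihood F test), which is 2 of 32 members, or 6.25%, beside 3.87% of all tested genes. At an unadjusted p under 0.05 there were 10 members, beside 18.4% of all tested genes. After Crebbp and Ncoa3 these were Sirt6 (adjusted p = 0.0696), Hdac4, Kat6a, Sin3a, Sirt4, Brd3, Kat8 and Hdac6, in order of p. DESeq2 and limma voom called 4 members, with Sirt6 (adjusted p = 0.0226 and 0.0075) and Kat6a (0.041 and 0.0346) added to the 2. The 3.87% is the share by edgeR and is not the share beside these 4. Over the other settings the count of all called genes ran from 427 to 977, beside 469 in the main fit. Among markers of cell types the edgeR test called 4 red blood cell, 2 perivascular macrophage and 1 neuron marker, and 0 of the 9 microglial markers. Their part in the values of the members was not tested.

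AD was compared with WT on each diet to ask whether the genotype mattered to these genes. On HAMSAB 3 members were lower in AD than in WT, Crebbp, Ncoa3 and Hdac4, and none was higher. That is 3 of 32 members, or 9.375%, beside 1.16% of all tested genes called and 1.01% called lower. Members as a whole were 11 higher and 21 lower, with a median log2 fold change of -0.07, beside a median of 0.00137 over all tested genes. Without adjustment 5 members had a p under 0.05, all lower, beside 11.8% of all tested genes (4.57% higher and 7.27% lower).

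Crebbp (chromosome 16, 4081328 to 4213997, minus strand, GRCm38) ran from 300 to 623 CPM in HAMSAB WT with a median of 490.3, and from 268 to 371 in HAMSAB AD with a median of 345. The means were 482 ± 114 and 331.5 ± 35.3 CPM (SD, n = 8 each). All 8 HAMSAB AD libraries lay below 7 of the 8 HAMSAB WT libraries, and the lowest HAMSAB WT library fell within the AD range. The log2 fold change was -0.53 ± 0.11 (SE), a ratio of 0.692 with an adjusted p of 0.00608 by edgeR. In the other groups Crebbp stood at 385 ± 43.5 CPM in zero fiber WT (SD, n = 6), 406 ± 79.2 in control WT, 455 ± 72.7 in zero fiber AD and 349 ± 45.4 in control AD (SD, n = 8 each).

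The 4 HAMSAB WT libraries of highest Crebbp all belong to the lower title series. In that series Crebbp averaged 543 CPM in 5 HAMSAB WT libraries and 330.5 in 5 HAMSAB AD libraries. In the upper series it averaged 381 CPM in 3 HAMSAB WT libraries and 351 in 2 HAMSAB AD libraries. The difference in log2(CPM + 1) was -0.70 in the lower and -0.10 in the upper series, so it was small in the upper one. With a term for the title series in the fit the log2 fold change was -0.49 and the adjusted p 0.0124 by edgeR. That fit also leaves out HAMSAB_AD replicate 8, the library numbered 000.

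Ncoa3 (chromosome 2, 165992636 to 166073242, plus strand) ran from 173 to 210.2 CPM in HAMSAB WT with a median of 189, and from 91.1 to 164 in HAMSAB AD with a median of 127. The 2 groups did not overlap, which was so for 1 of the 32 tested members and for 0.215% of all tested genes. The means were 189 ± 14.3 and 122 ± 25.1 CPM (SD, n = 8 each). The log2 fold change was -0.64 ± 0.14 (SE), a ratio of 0.641, with an adjusted p of 0.00932 by edgeR. The difference in log2(CPM + 1) was alike in both title series, -0.69 in the lower and -0.66 in the upper. The upper value rests on 3 HAMSAB WT libraries (173 to 178 CPM) and 2 HAMSAB AD libraries (92 and 132 CPM).

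Hdac4 (chromosome 1, 91928779 to 92195699, minus strand) ran from 29.6 to 66.4 CPM in HAMSAB WT with a median of 50.8, and from 27.5 to 49.4 in HAMSAB AD with a median of 36. These 2 ranges overlapped. The means were 49.9 ± 12.1 and 35.3 ± 6.88 CPM (SD, n = 8 each), with a log2 fold change of -0.51 ± 0.13 (SE), a ratio of 0.702 and an adjusted p of 0.0312 by edgeR. The difference in log2(CPM + 1) was -0.80 below title number 2900 and 0.16 from it on, so it was not seen in the upper series. The upper value rests on 3 HAMSAB WT libraries (29.6 to 50 CPM) and 2 HAMSAB AD libraries (36.2 and 49.4 CPM). The library at 49.4 CPM, HAMSAB_AD replicate 7, stood apart from the others of its group (27.5 to 37.2 CPM). With the title series in the fit, which leaves out HAMSAB_AD replicate 8 (numbered 000), the adjusted p was 0.0665. Without that library alone, and with no series term, it was 0.0756 at a log2 fold change of -0.49. With the trend on exon length removed the adjusted p was 0.0642 (edgeR). Without HAMSAB_WT replicate 1, the library with the largest effect on this call, it was 0.145 at a log2 fold change of -0.43.

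**Figure D2:**
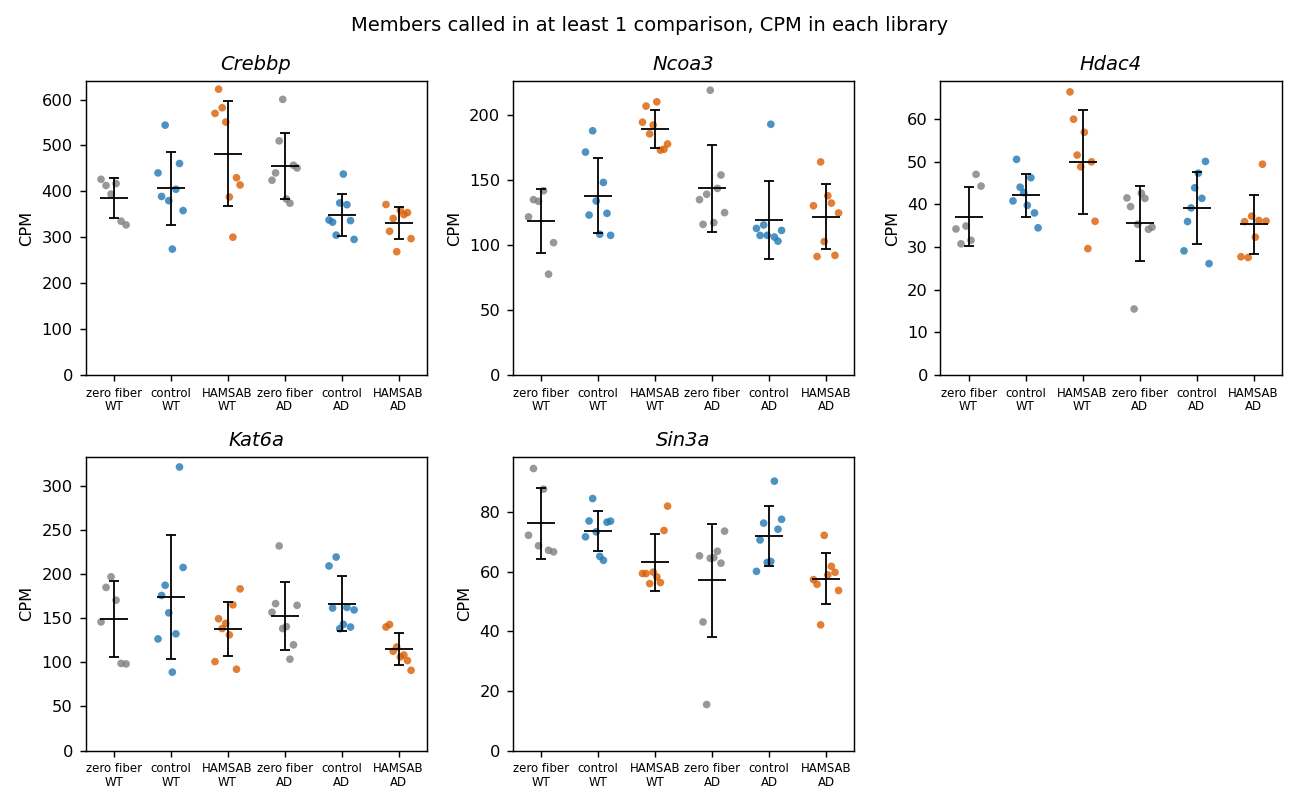
CPM of Crebbp, Ncoa3, Hdac4, Kat6a and Sin3a in each library (points) of the 6 diet and genotype groups (horizontal axis); black bars are the group mean and its SD. The 8 HAMSAB WT libraries of Ncoa3 (173 to 210.2 CPM) lie above all HAMSAB AD libraries, whose highest is 164.

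Of the remaining members on HAMSAB, Sirt6 stood at 56.8 ± 13.5 CPM in WT and 32.6 ± 14.8 in AD (SD, n = 8 each), with a log2 fold change of -0.85 ± 0.31 (SE) that did not pass the correction (adjusted p = 0.196, edgeR). limma voom with quality weights called Sirt6 here, at -1.04 (adjusted p = 0.0114), and DESeq2 did not. Its range was 40.6 to 82.4 CPM in HAMSAB WT and 13.2 to 51 in HAMSAB AD. Brd2 stood at 272 ± 27.6 and 239 ± 23.1 CPM and was not called either (log2 fold change -0.18, adjusted p = 0.334). Ep300, the close relative of Crebbp, had a log2 fold change of -0.30 with a 95% interval of -0.65 to 0.04, which includes both 0 and the value of Crebbp.

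No marker of another cell type was called between these groups, but the values of some lists stood apart. The 6 perivascular macrophage markers summed to 29.7 CPM in HAMSAB AD (16.1 to 44.5) and 44.8 in HAMSAB WT (23.3 to 73.7), and all 6 had lower values in AD with 0 called. The 4 choroid plexus markers summed to 183 CPM in HAMSAB AD (84 to 288) and 93.1 in HAMSAB WT (20.5 to 175). Only 1 of these 4 passed the filter. No perivascular macrophage or choroid plexus marker was at 0 in all libraries of these groups. All 4 tested neuron markers (median log2 fold change -0.46) and all 4 tested red blood cell markers (median -1.05) also had lower values in AD. Of the 9 microglial markers 8 had higher values in AD and 1 a lower value. Log2 level relative to each gene's mean was also set against the log2 length of all its exons. The slope averaged -0.026 in HAMSAB AD and -0.00264 in HAMSAB WT. The part of the cell markers in the differences of Crebbp, Ncoa3 and Hdac4 was not tested. With the length trend removed Crebbp (adjusted p = 0.0101) and Ncoa3 (adjusted p = 0.0108) were still called by edgeR.

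On the other diets the genotype gave 0 called members. On the control diet there were 0 members beside 0% of all tested genes, and on zero fiber 0 members beside 0.00825%. At an unadjusted p under 0.05 there were 3 and 4 members, beside 5.02% and 4.41% of all tested genes. Over all diets 0 members were called beside 0.0165%, with 5 at an unadjusted p under 0.05 beside 7%. DESeq2 and limma voom also called 0 members in these 3 comparisons. On the control diet the log2 fold change was -0.22 for Crebbp, -0.22 for Ncoa3 and -0.09 for Hdac4. On zero fiber it was 0.21 for Crebbp, 0.27 for Ncoa3 and 0.05 for Hdac4.

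**Figure D3:**
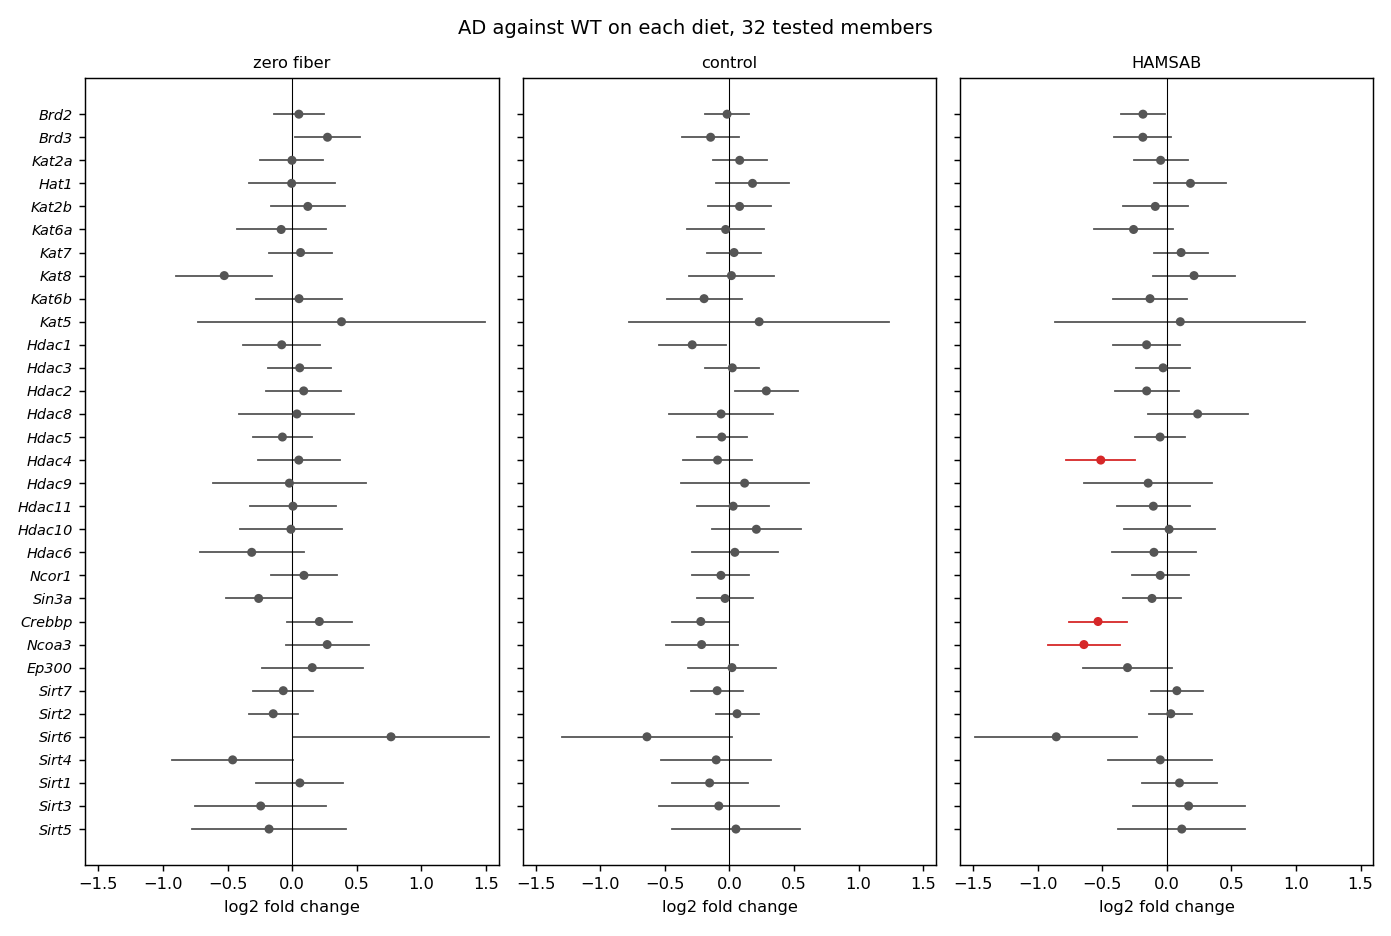
Log2 fold change of AD against WT (horizontal axis) for the 32 tested members on zero fiber, control and HAMSAB diets; bars are 95% intervals and red marks an adjusted p under 0.05. Crebbp, Ncoa3 and Hdac4 are red on HAMSAB, at -0.53, -0.64 and -0.51, and no member is red on the other diets.

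Whether the genotype difference itself depended on the diet was asked with an F test of the diet by genotype term. It called 0 members, beside 0.0578% of all tested genes. Crebbp and Ncoa3 came closest, with adjusted p of 0.0785 and 0.0961 by edgeR. At an unadjusted p under 0.05 there were 7 members, Crebbp, Ncoa3, Sirt6, Kat8, Brd3, Hdac4 and Hdac2, beside 7.78% of all tested genes. DESeq2 called Crebbp (adjusted p = 0.0161) and Ncoa3 (adjusted p = 0.0214), and so did limma voom (0.0339 and 0.0491). The call for these 2 genes thus depended on the tool. The count of all called genes also moved, from 7 in the main fit to between 7 and 114 over the other settings.

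HAMSAB was next compared with the diet that lacks fiber. In WT mice Ncoa3 was higher on HAMSAB, which is 1 of 32 members, or 3.125%, beside 1.34% of all tested genes called and 1.16% called higher. Without adjustment 6 members had a p under 0.05, 4 higher and 2 lower, beside 11.7% of all tested genes (7.4% higher and 4.34% lower). limma voom also called Sirt6, at 1.25 (adjusted p = 0.0138), which edgeR did not (1.15 ± 0.36 SE, adjusted p = 0.104). Sirt6 stood at 28.2 ± 12 CPM in zero fiber WT (SD, n = 6) and 56.8 ± 13.5 in HAMSAB WT (SD, n = 8). Ncoa3 ran from 77.5 to 142 CPM in zero fiber WT with a median of 128, and all 8 HAMSAB WT libraries lay above that range. Groups without overlap were found for 1 of the 32 members and for 0.594% of all tested genes. The means were 119 ± 24.5 CPM (SD, n = 6) and 189 ± 14.3 (SD, n = 8), with a log2 fold change of 0.65 ± 0.15 (SE), a ratio of 1.57 and an adjusted p of 0.025 by edgeR. In log2(CPM + 1) the difference was 0.57 in the lower and 0.97 in the upper title series, the latter with 2 zero fiber libraries. Without zero_fiber_WT replicate 1 the adjusted p was 0.178, and without replicate 3 it was 0.159. Replicates 1 and 3 are the only 2 males of zero fiber WT, so leaving out either rests the male mean on 1 library. The log2 fold change was then 0.61 without replicate 1 and 0.68 without replicate 3. The HAMSAB WT libraries are shared by this comparison and by AD against WT on HAMSAB, so the 2 results on Ncoa3 are not independent. The 5 red blood cell markers summed to 288 CPM in zero fiber WT (65.6 to 684) and 61.3 in HAMSAB WT (8.88 to 140), where 1 marker was at 0 in all libraries, and their part in the difference was not tested.

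In AD mice 0 members were called between HAMSAB and zero fiber, beside 0.182% of all tested genes, and 8 had an unadjusted p under 0.05, beside 10.4%. Crebbp came closest with a log2 fold change of -0.45 ± 0.11 (SE) and an adjusted p of 0.0654 by edgeR. DESeq2 called Crebbp here (adjusted p = 0.0232) and limma voom called 0 members. The CPM of Crebbp ran from 374 to 600 in zero fiber AD, above the 268 to 371 of HAMSAB AD. Brd3 ran from 152 to 225 CPM in zero fiber AD and from 113 to 148 in HAMSAB AD, with a log2 fold change of -0.38 that did not pass the correction (adjusted p = 0.156, edgeR). Crebbp and Brd3 were the 2 members whose groups did not overlap here, which was so for 0.124% of all tested genes. All 6 perivascular macrophage markers had lower values on HAMSAB here (median log2 fold change -0.76), as had all 4 tested red blood cell markers (median -2.35), with 0 called in both lists. Their sums were 29.7 CPM in HAMSAB AD (16.1 to 44.5) and 58.9 in zero fiber AD (30.7 to 86) for the former, and 34.6 (1.70 to 157) and 162 (21.6 to 423) for the latter. Their part in the values of Crebbp and Brd3 was not tested.

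Over both genotypes 0 members were called between HAMSAB and zero fiber, beside 0.916% of all tested genes, and 6 had an unadjusted p under 0.05, beside 13.1%. DESeq2 and limma voom also called 0 members. The class I deacetylases, the enzymes that butyrate inhibits, are the first to look at here. The log2 fold change was -0.02 for Hdac1 (95% interval -0.22 to 0.17), 0.06 for Hdac2 (-0.13 to 0.25), 0.19 for Hdac3 (0.03 to 0.35) and -0.14 for Hdac8 (-0.44 to 0.15). Hdac6, a tubulin deacetylase, had the smallest p of all members at 0.41 ± 0.13 (SE), with an adjusted p of 0.114 by edgeR. Its zero fiber AD group included zero_fiber_AD replicate 3, which held 0 reads of Hdac6, and without that library the log2 fold change of Hdac6 was 0.40 (adjusted p = 0.117, edgeR). All 4 tested red blood cell markers had lower values on HAMSAB over both genotypes, with 3 called and a median log2 fold change of -2.26. Their part in the values of the members was not tested.

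HAMSAB was then compared with the control diet over both genotypes, the comparison with the most called genes. Kat6a and Sin3a were lower on HAMSAB and no member was called higher. That is 2 of 32 members, or 6.25%, beside 4.43% of all tested genes called and 2.25% called lower, so the share is near that of all genes. Members as a whole were 18 higher and 14 lower, with a median log2 fold change of 0.00375 beside 0.00242 over all tested genes. Without adjustment 11 members had a p under 0.05, 5 higher and 6 lower, beside 21.8% of all tested genes (10.8% higher and 11% lower).

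Kat6a (chromosome 8, 22859535 to 22943259, plus strand) ran from 88.8 to 321 CPM in control WT with a median of 166, and from 138 to 219 in control AD with a median of 160.4. On HAMSAB it ran from 92.1 to 183 CPM in WT with a median of 141, and from 90.9 to 143 in AD with a median of 110.4. All of these ranges overlapped. The means were 174 ± 70.2 and 166.5 ± 31.1 CPM on control and 138 ± 30.4 and 115 ± 18.1 on HAMSAB (SD, n = 8 each, WT then AD). The log2 fold change was -0.43 ± 0.10 (SE), a ratio of 0.742, with an adjusted p of 0.0143 by edgeR. In log2(CPM + 1) the difference was -0.24 in the lower and -0.39 in the upper title series. In the lower series the WT part rests on 1 control library and was 0.06.

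Sin3a (chromosome 9, 57072040 to 57128366, plus strand), the scaffold of the Sin3 complex that holds Hdac1 and Hdac2, ran from 63.8 to 84.5 CPM in control WT with a median of 75, and from 60.1 to 90.4 in control AD with a median of 72.4. On HAMSAB it ran from 56 to 82 CPM in WT with a median of 59.4, and from 42.2 to 72.2 in AD with a median of 58.1. The ranges overlapped in both genotypes, though most HAMSAB libraries lay below the control median of their genotype. The log2 fold change was -0.27 ± 0.08 (SE), a ratio of 0.828, with an adjusted p of 0.0322 by edgeR. The difference in log2(CPM + 1) was -0.27 in the lower and -0.19 in the upper title series. With the title series in the fit, which leaves out HAMSAB_AD replicate 8, the adjusted p was 0.0925. Without that library alone it was 0.0511, and without HAMSAB_WT replicate 3 alone it was 0.0665 (edgeR). The 6 perivascular macrophage markers all had lower values on HAMSAB than on control, with 0 called. All 4 tested neuron markers had higher values on HAMSAB, with 1 called and a median log2 fold change of 0.62, and the 8 neuron markers summed to 21.1 CPM in HAMSAB WT (11.5 to 39.8), 17.1 in HAMSAB AD (9.84 to 38.9), 13 in control WT (8.38 to 21.4) and 10.1 in control AD (4.34 to 14.8). The 5 tested oligodendrocyte markers and the 4 tested red blood cell markers also had higher values on HAMSAB, with 0 called. The part of these markers in the differences of Kat6a and Sin3a was not tested. With the length trend removed Kat6a (adjusted p = 0.0181) and Sin3a (adjusted p = 0.0434) were still called by edgeR.

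The sequences before a transcription start are shown for 1 called eraser and 1 called scaffold, as the RefSeq promoter table holds an entry for 28 of the 33 members and these windows lie outside annotated exons. Each is the 250 bases before a RefSeq start on GRCm38, in gene orientation, and capitals mark the GC box GGGCGG or the CCAAT box CCAAT on either strand. Both windows lie inside the gene as GENCODE annotates it, before an internal start. The Hdac4 window is chr1:92180342-92180591, minus strand, and the Sin3a window is chr9:57076126-57076375, plus strand.
Hdac4: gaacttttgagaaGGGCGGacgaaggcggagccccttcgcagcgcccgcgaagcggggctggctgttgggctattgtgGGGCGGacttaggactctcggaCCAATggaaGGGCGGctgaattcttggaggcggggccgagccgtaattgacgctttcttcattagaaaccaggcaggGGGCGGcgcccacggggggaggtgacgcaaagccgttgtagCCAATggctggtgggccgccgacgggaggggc
Sin3a: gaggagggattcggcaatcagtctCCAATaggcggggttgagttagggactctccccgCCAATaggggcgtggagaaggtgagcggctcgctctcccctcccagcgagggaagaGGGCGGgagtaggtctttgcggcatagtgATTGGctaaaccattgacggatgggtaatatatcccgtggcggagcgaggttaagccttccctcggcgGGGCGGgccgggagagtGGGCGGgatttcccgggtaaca

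The Hdac4 window held 4 GC boxes and 2 CCAAT boxes at 65.2% G and C, and the Sin3a window 3 GC boxes and 3 CCAAT boxes at 61.6%. Of 32851 RefSeq promoter windows of this length, 32.7% held a GC box and 33.8% a CCAAT box, and the median content of G and C was 52.4%. The letters TGACG, the core of a cAMP response element, stood 2 times in the Hdac4 window and 1 time in that of Sin3a, and in 17.8% of all windows. On either strand, TGACGTCA (1.55% of all windows), CACGTG (6.02%), GAGGAA (23.3%), the NRF1 motif (0.782%) and TATAAA (12.4%) were found in neither. These are matches of letters, not measured binding. A second Sin3a window is listed and not printed, chr9:57071790-57072039, which ends at the annotated start of the gene. It has 177 bases in annotated exons and held 1 GC box and 2 CCAAT boxes at 50.8% G and C.

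**Figure D4:**
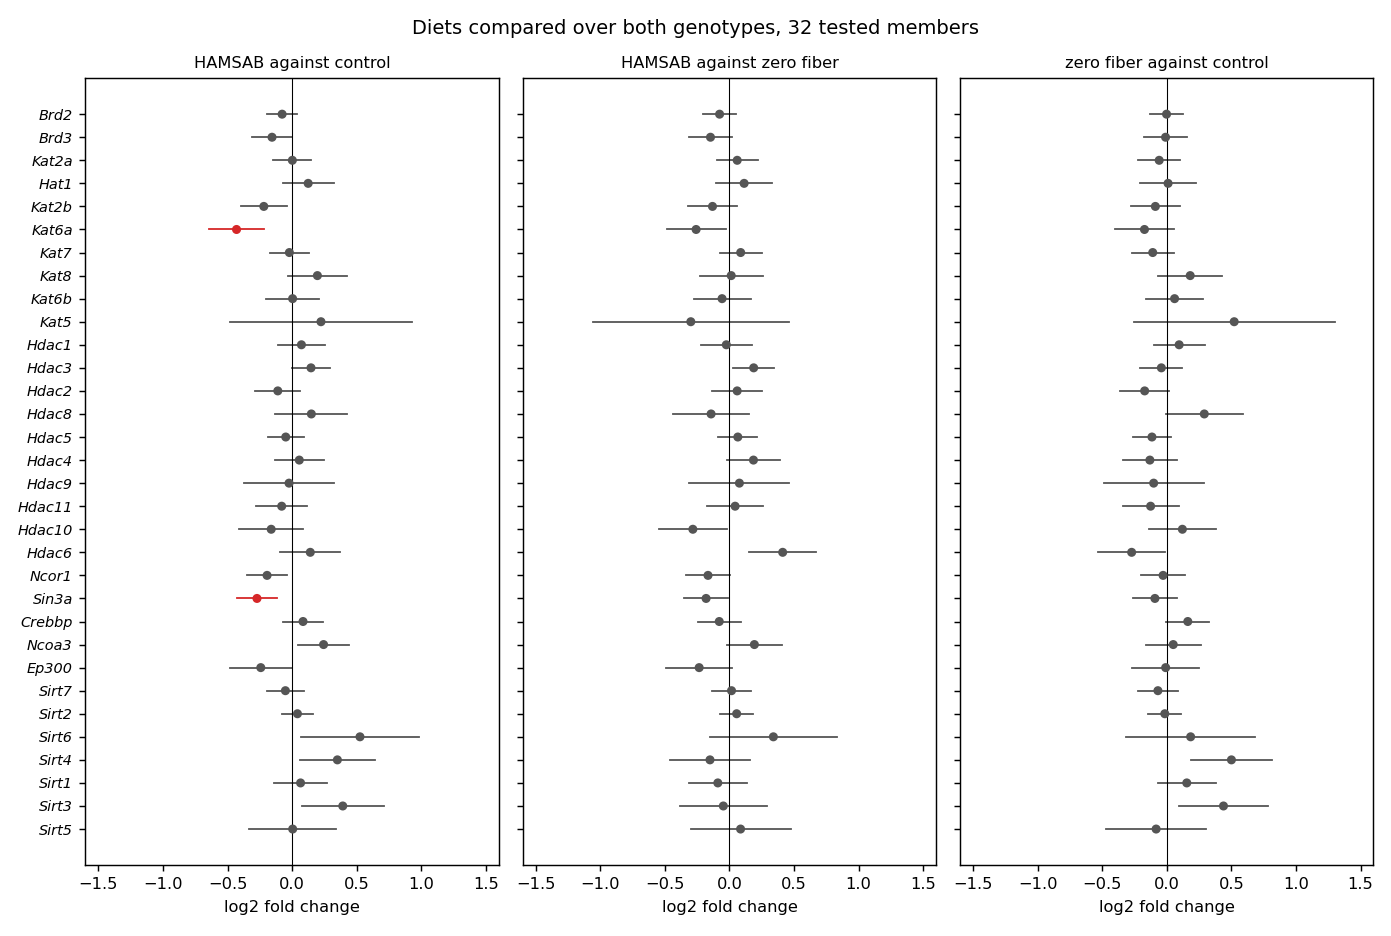
Log2 fold change (horizontal axis) of the 32 tested members for HAMSAB against control, HAMSAB against zero fiber and zero fiber against control, each over both genotypes; bars are 95% intervals and red marks an adjusted p under 0.05. Kat6a and Sin3a are red for HAMSAB against control, at -0.43 and -0.27, and no member is red in the other panels.

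The class I deacetylases were not called in that comparison. The log2 fold change of HAMSAB against control was 0.07 for Hdac1 (95% interval -0.11 to 0.25), -0.11 for Hdac2 (-0.29 to 0.06), 0.15 for Hdac3 (0.00 to 0.29) and 0.15 for Hdac8 (-0.13 to 0.43). Hdac1 stood at 63.8 ± 7.87 CPM in control WT and 64 ± 11.1 in HAMSAB WT, and at 52.4 ± 9.49 and 57.4 ± 12.2 in the same diets in AD (SD, n = 8 each). Hdac5, the class IIa member of highest level, had group means between 55.7 and 67 CPM. Ncor1 was at 266 ± 41.7 CPM in control WT and 231 ± 28.1 in HAMSAB WT, and at 254 ± 39.3 and 223 ± 29.3 in AD, a log2 fold change of -0.19 that did not pass the correction (adjusted p = 0.124, edgeR).

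Within 1 genotype HAMSAB and control gave 0 called members. In AD the background was 0.107% of all tested genes and Kat6a came closest (log2 fold change -0.54 ± 0.15 SE, adjusted p = 0.0806, edgeR), with 6 members at an unadjusted p under 0.05 beside 15.1%. DESeq2 and limma voom each called Kat6a there. In WT the background was 0.239%, with 6 members at an unadjusted p under 0.05 beside 13%, and DESeq2 and limma voom called 0. No member had groups without overlap, beside 0.116% of all tested genes in AD and 0.0413% in WT. Ncoa3 came closest in WT, at 0.46 ± 0.14 (SE) and an adjusted p of 0.115 by edgeR.

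Zero fiber against control gave 0 called members over both genotypes (background 0.446%), in AD (0%) and in WT (0.00825%), and DESeq2 and limma voom called 0 as well. At an unadjusted p under 0.05 there were 3, 5 and 3 members, beside 12.8%, 10.7% and 7.33% of all tested genes. Sirt4, a mitochondrial sirtuin, had the smallest p over both genotypes, with a log2 fold change of 0.50 ± 0.16 (SE) and an adjusted p of 0.13 by edgeR. Its level was 14 ± 4.46 CPM in zero fiber WT (SD, n = 6) and 8.25 ± 2.26 in control WT (SD, n = 8), from a median of 23.5 reads per library. In AD it was 8.51 ± 4.63 CPM on zero fiber and 7.62 ± 1.43 on control (SD, n = 8 each). The fitted log2 fold change was 0.68 in WT (adjusted p = 0.395) and 0.32 in AD (adjusted p = 0.614, edgeR). In log2(CPM + 1) the difference over both genotypes was -0.32 in the lower and 0.74 in the upper title series. In the lower series the AD part was -0.71 and the WT part 0.07. That AD part includes the 1 library with 0 reads of Sirt4, taken at full weight. The direction in the lower series is therefore uncertain. Over both genotypes all 4 tested red blood cell markers were called higher on zero fiber than on control (median log2 fold change 2.66). All 4 tested neuron markers also had higher values there, with 1 called. The part of these markers in the values of the members was not tested.

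Sex was compared over all groups and gave 0 called members, beside 0.124% of all tested genes. At an unadjusted p under 0.05 there were 3 members, beside 10.4%. Kat8 (MOF), the H4K16 acetyltransferase, had a log2 fold change of female against male of 0.36 ± 0.10 (SE), and Kat6a one of -0.33 ± 0.09 (SE), both with an adjusted p of 0.133 by edgeR. DESeq2 and limma voom called 0. The comparison counts zero_fiber_AD replicate 1 as female by its label, although it carries the sex-gene pattern of a male. It also includes zero_fiber_AD replicate 3, a male library with 0 reads of Kat8. With both sexes together, Kat8 stood between 14 ± 6.34 CPM in zero fiber AD (SD, n = 8) and 24 ± 7.11 in zero fiber WT (SD, n = 6).

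Members of steady level included Kat2a, whose group means lay between 42.4 and 46.2 CPM, and Sirt7, whose means lay between 131 and 151. Hdac11 had group means between 16.9 and 20.6 CPM. Hdac6 was less steady, with group means between 9.01 and 16.2. The lowest mean of both was that of zero fiber AD, which includes zero_fiber_AD replicate 3 with 0 reads of either gene. Kat5 was the least sharply measured tested member, with a 95% interval of AD against WT on HAMSAB from -0.86 to 1.07.

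Other genes of the same pathways were taken from 5 lists with 121 genes. The lists were chosen with earlier results of these data known. Their shares of called genes are therefore no test of the lists. Among subunits of deacetylase complexes (27 of 28 genes tested), 6 were called between HAMSAB and control over both genotypes, 4 lower and 2 higher, which is 22.2% of the list beside 4.43% of all tested genes. Among the lower ones were Tbl1x, a subunit of the NCoR complex, at -0.28 ± 0.07 (log2 fold change, SE), Suds3, a subunit of the Sin3 complex, at -0.33 ± 0.10, and Gatad2a, of the NuRD complex, at -0.26 ± 0.08. The higher ones were Rcor3, of the CoREST family, at 0.35 ± 0.09 and Sin3b, the paralog of Sin3a, at 0.24 ± 0.07. The list as a whole had 8 higher and 19 lower values, with a median of -0.07 beside 0.00242 over all tested genes.

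Among other acetyltransferases and subunits of their complexes (43 genes tested), 2 were lower on HAMSAB than on control, Epc2 of the NuA4 complex at -0.39 ± 0.12 and Msl2 of the MSL complex at -0.30 ± 0.08, and none was called higher. This is 4.65% of the list, near the 4.43% of all tested genes. DESeq2 called the same count and limma voom called 6, and the 4.43% is that of edgeR alone. Among other bromodomain and YEATS readers (30 of 31 genes tested), Pbrm1 of the PBAF complex was lower at -0.25 ± 0.08 and Brd8 higher at 0.23 ± 0.07, which is 6.67% of the list beside the same 4.43%. That list had 6 higher and 24 lower values, with a median log2 fold change of -0.16. The slope on exon length also differed between these diets, at -0.00264 in HAMSAB WT and 0.0102 in control WT, and at -0.026 in HAMSAB AD and 0.0148 in control AD. Its part in the values of these lists was not tested. Against zero fiber, over both genotypes, Zmynd8 was the 1 called reader, lower on HAMSAB at -0.28 ± 0.07 (adjusted p = 0.0266, edgeR).

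In AD against WT on HAMSAB, Supt20, a subunit of the SAGA complex, was lower at -0.39 ± 0.10 (adjusted p = 0.0439), and so was Brd1, a reader and scaffold of MYST complexes, at -0.43 ± 0.10 (adjusted p = 0.0178, edgeR). Brd1 stood at 163 ± 19.3 CPM in HAMSAB WT and 121 ± 19.5 in HAMSAB AD (SD, n = 8 each). Both genes and Kansl2 (adjusted p = 0.018) were also called over the 6 groups. In the list of acetyl-CoA and NAD+ supply 0 of 11 tested genes were called in any comparison, and in the list of genes classically induced by deacetylase inhibitors 0 of 7, both by edgeR. Over the 6 groups 1 gene of each had an unadjusted p under 0.05, Nampt and Gadd45a, whose adjusted p by edgeR were 0.246 and 0.238. DESeq2 called 0 genes of these 2 lists in the same comparisons, and limma voom called 1, Gadd45a in AD against WT on HAMSAB.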

How the data were processed

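RNA was extracted from microglia with an RNeasy Micro kit on a QIAcube, per the labels' protocols. The authors deposited raw read counts per gene symbol for 46 libraries, with no normalization. Per the submitters' processing notes the tools were STAR 2.5.2b and featureCounts 1.5.2, with GRCm38. Annotation release and strand setting: not given in the sources used here.

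Counts were fitted with edgeR 4.0.16 (R 4.3.3): filterByExpr, TMM factors (0.918 to 1.25), robust quasi-likelihood, 1 mean for each of the 12 combinations of diet, genotype and sex. Intervals of 95% use 34 residual degrees of freedom. CPM uses TMM-scaled library sizes. Exon lengths come from GENCODE M21, promoters from RefSeq. Identical columns numbered 0 (smallest chi-square over its degrees of freedom 1.73). The tests were tried on simulated counts.

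Values by group are given for called members, then those of smallest p over the 6 groups up to 10, and the member of highest level per kb in each class. The members and lists were chosen with earlier results of these data known. The values of 1 listed gene are not reported here. Alternatives were DESeq2 1.42.0 size factors and test, limma 3.58.1 voom with quality weights, no filter, a title series term, without the 2 doubted libraries, an additive sex term, only the libraries compared, the length trend removed, and leaving out each library. The fit with the title series term leaves out the library numbered 000, HAMSAB_AD replicate 8.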

Additional observations from a re-analysis of the deposited data

Results flagged for a closer look

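Single libraries stood apart from the others of their group for some members, by Dixon's ratio at the 95% level. Chance gives about 1 in 20 groups, and 10 of 102 combinations of member and group were marked. Of these, 4 belong to zero_fiber_AD replicate 3, the library of lowest depth. It held 0 CPM (0 reads) of Kat8, Hdac6 and Hdac11, where the others of its group ran from 12.5 to 21.3, from 9.21 to 11.1 and from 17.3 to 21.7 CPM, and 15.5 CPM (1 read) of Hdac4, where the others ran from 34.1 to 42.6.

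Ncoa3 was high in zero_fiber_AD replicate 4, at 219 CPM beside 116 to 154 in the others, and in control_AD replicate 5, at 193 CPM beside 103 to 115. Hdac4 was high in HAMSAB_AD replicate 7, at 49.4 CPM beside 27.5 to 37.2. Sirt4 was high in zero_fiber_WT replicate 6, at 22.8 CPM beside 10.4 to 13.1. Brd3 was high in zero_fiber_AD replicate 7, at 225 CPM beside 152 to 185. Hdac6 was high in HAMSAB_WT replicate 6, at 30.7 CPM beside 11.5 to 20.5.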

How the results depend on the processing

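No member comparison with an unadjusted p under 0.01 changed direction under any alternative or with any 1 library left out. Crebbp and Ncoa3 over the 6 groups and in AD against WT on HAMSAB, and Kat6a in HAMSAB against control, were called under every alternative and without each of the 46 libraries. Over the 6 groups 4 members were called with no filter, DESeq2 and voom. In HAMSAB against control over both genotypes 1 was called with the title series term. In HAMSAB against zero fiber in AD 1 was called with no filter, DESeq2 and only the libraries compared, and in HAMSAB against control in AD 1 with these and with voom. In HAMSAB against zero fiber in WT 2 were called with voom, only the libraries compared and, chosen after the data were seen, edgeR without robust estimation. In HAMSAB against control in WT 1 was called with no filter, and in female against male 1 with no filter. For diet by genotype 2 were called with no filter, DESeq2, voom and the title series term, and 1 with the additive sex term.

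With 1 library left out, called members ranged from 2 to 4 over the 6 groups, 1 to 3 in HAMSAB against control over both genotypes, 0 to 1 in HAMSAB against zero fiber in AD, 0 to 2 in the same in WT, 2 to 3 in AD against WT on HAMSAB and 0 to 2 for diet by genotype, and were 0 in the other comparisons. Ncoa3 in HAMSAB against zero fiber in WT was lost without zero_fiber_WT replicate 1, 3 or 5 or HAMSAB_WT replicate 1, 2 or 5 (adjusted p 0.0514 to 0.178). Hdac4 on HAMSAB was lost without HAMSAB_WT replicate 1, 2, 3, 4 or 5 or HAMSAB_AD replicate 1, 3, 5, 6 or 8 (0.0512 to 0.145), and with only the libraries compared (0.0639). Sin3a was lost without HAMSAB_WT replicate 1, 2 or 3, HAMSAB_AD replicate 3 or 8, control_AD replicate 3 or 6 or control_WT replicate 2 (0.0511 to 0.0665). The cause was not tested, though zero_fiber_WT replicates 1 and 3 are the only males of their group and the fit weights the sexes equally. Depth limits low genes such as Kat5, at a median of 3 reads. Counts over all genes moved more, and with them the shares of all tested genes printed beside the members. AD against WT on HAMSAB gave 140 (114 to 382 over the other settings, 69 to 253 with 1 library left out), the 6 groups 469 (427 to 977, 254 to 630), HAMSAB against control 537 (368 to 773, 274 to 856), in AD 13 (9 to 181, 1 to 93) and in WT 29 (3 to 152, 1 to 153). HAMSAB against zero fiber gave 111 (83 to 202, 29 to 268), in AD 22 (10 to 70, 10 to 65) and in WT 162 (181 to 345, 2 to 286, with 2 and 5 without zero_fiber_WT replicate 3 and 1), zero fiber against control 54 (32 to 180, 1 to 78), diet by genotype 7 (7 to 114, 1 to 51) and female against male 15 (10 to 68, 12 to 22). No paired analysis was possible because replicate numbers follow deposit order and pair no libraries.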
